A study of Homo sapiens with 6 samples.

Results

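The 37 genes carried by the mitochondrial genome were examined in K562 cells with wild-type SF3B1 (WT) or SF3B1-K700E. They are all rows of the deposited tables that lie on chrM, 37 of 62111. Position set the membership, and earlier results of these data were known when the set was chosen. They comprise 13 mRNAs, 2 rRNAs and 22 tRNAs. K562 is an established human leukaemia line with erythroid features. The labels give 3 libraries of each genotype and no treatment, time or clone, and whether replicates were grown separately is not stated. A p-value therefore reflects spread among these 6 libraries, which may be technical. The values are TPM, reads per base of gene length scaled to 1000000 in each library, so a level is always a share of the library.

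Mitochondrial DNA is a small circle without introns, and it is copied into RNA from both strands as long precursors. The heavy-strand precursor carries both rRNAs, most tRNAs and all mRNAs except MT-ND6, which comes from the light strand with the remaining tRNAs. Enzymes cut the tRNAs out and so free the mRNAs and rRNAs between them. The heavy-strand mRNAs then receive a short poly(A) tail inside the organelle. The mRNAs encode subunits of complexes I, III and IV of the respiratory chain and of ATP synthase, and all other subunits of these complexes are made from nuclear genes. SF3B1, the protein altered in K700E, acts on the introns of nuclear transcripts.

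Sequence features bear on how such RNAs enter an mRNA library. Sequences were taken from the GENCODE 29 transcripts (GRCh38) by gene ID, since the coordinates of all 37 genes were the same there as in the deposited GRCh37 table. Of the 13 mRNAs, 6 end before their stop codon is complete, and in the cell the poly(A) tail supplies the missing bases. The last 21 bases of 4 mRNAs that the results turn on are shown here, with the encoded stop codon or the encoded part of it in capitals.
MT-ND1: cagcattccccctcaaaccTA
MT-CYB: acaaaatactcaaatgggccT
MT-ND5: accctactcctaatcacaTAA
MT-ND6: gagattgctcgggggaatAGG
MT-ND1 and MT-CYB thus rely on the tail for their stop codon, while MT-ND5 encodes a full one. MT-ND6, the light-strand mRNA, ends in AGG and has 35.6% G, against 6.28 to 16.2% in the other 12 mRNAs.

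Mature tRNAs carry CCA at their end and no poly(A) tail. The 5 tRNA genes with at least 10 reads in every library are shown whole, with the anticodon in capitals.
MT-TF, chrM:577-647, plus strand: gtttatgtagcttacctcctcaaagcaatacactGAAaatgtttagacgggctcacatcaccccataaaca
MT-TN, chrM:5657-5729, minus strand: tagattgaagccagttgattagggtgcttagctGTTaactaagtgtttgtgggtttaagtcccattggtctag
MT-TC, chrM:5761-5826, minus strand: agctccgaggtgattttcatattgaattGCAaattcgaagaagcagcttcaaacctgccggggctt
MT-TY, chrM:5826-5891, minus strand: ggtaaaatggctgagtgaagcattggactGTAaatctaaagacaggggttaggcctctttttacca
MT-TP, chrM:15956-16023, minus strand: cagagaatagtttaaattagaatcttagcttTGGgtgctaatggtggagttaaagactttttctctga
They read the codons of phenylalanine, asparagine, cysteine, tyrosine and proline, in that order. Genes on the minus strand of the reference are those of the light-strand precursor.

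Each library held between 104642332 and 136588117 reads, as recovered from TPM and gene length. SF3B1 itself stood at 144, 98.9 and 115 TPM in WT replicates 1, 2 and 3, against 160, 136 and 118 in the K700E replicates (limma adjusted p 0.602), which does not test for a substitution. Of the erythroid markers of K562, GATA1 stood at 273 to 540 TPM and ALAS2 at 717 to 1363 TPM. Of 9 markers of other cell types 7 had a mean under 1 TPM, KRT5 was at 0 in all libraries and MS4A1 in all WT libraries, and the sum of the 9 was 5.32 to 7.21 TPM in WT and 7.79 to 9.28 TPM in K700E. WT replicate 3 stood apart in that it lay between the other WT libraries in 75.9% of all tested genes, and in 12 of 13 mitochondrial mRNAs and both rRNAs. Without it limma called 0 genes of any kind, with 1492 at an unadjusted p under 0.05.

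Mitochondrial mRNAs stood at similar summed levels in the genotypes, and none of the 13 passed the test. The sum was 140937, 97929 and 113581 TPM in WT replicates 1, 2 and 3, against 101963, 126656 and 126116 in the K700E replicates. K700E replicate 1 lay near the lowest WT library and the other K700E libraries between the WT extremes. The means were 117482 ± 21768 TPM for WT against 118245 ± 14103 TPM for K700E (SD, n = 3 each). These mRNAs made up 9.79 to 14.1% of all TPM, and all mitochondrial genes together took 4.41 to 6.77% of reads. In a whole-culture library, the number of mitochondrial genomes per cell and the amount of RNA per genome cannot be told apart.

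The test was limma on log2(TPM + 1) across the 15493 genes whose mean reached 1 TPM, at a Benjamini-Hochberg adjusted p under 0.05. It called 1.38% of all tested genes, 1.15% higher and 0.232% lower in K700E. Among the mRNAs it called 0 of 13, with 1 (MT-ND1) at an unadjusted p under 0.05, where 16.5% of all genes lay. Their median log2 difference was 0.09, against 0.13 over all genes, and 10 of 13 had a positive difference while 3 of 13 lay above the median gene. With median-ratio scaling, which moved the median gene to -0.04, 2 mRNAs (MT-ND5 and MT-ND6) were positive and 11 negative. Calls over all genes were 83.2% higher as deposited and 68.9% higher with that scaling.

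**Figure D1:**
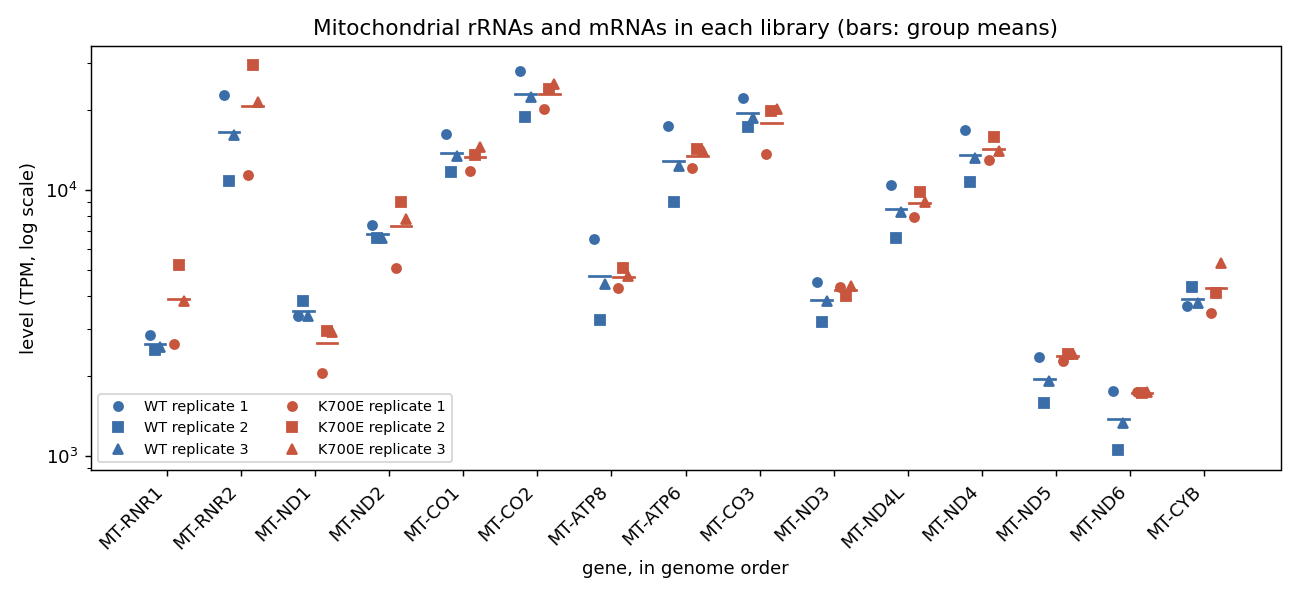
TPM (log axis) of the 2 rRNAs and 13 mRNAs in genome order, with a point per library and a bar at each group mean; blue is WT and red K700E. The groups overlap in every gene except MT-ND1, whose K700E libraries lie at 2054 to 2955 TPM, below the lowest WT library at 3341 TPM.

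Complex IV, cytochrome c oxidase, passes electrons to oxygen, and its 3 mitochondrial subunits form the catalytic core. MT-CO2 had the highest mRNA level in every library, at 28051, 18864 and 22355 TPM in WT against 20233, 23957 and 25082 in K700E. Its group means, 23090 and 23091 TPM, were nearly the same, with a log2 difference of 0.01 and a 95% interval of -0.38 to 0.40. MT-CO1 stood at 16273, 11657 and 13480 TPM in WT against 11838, 13559 and 14564 in K700E. MT-CO3 was at 22316, 17326 and 18736 TPM in WT against 13685, 19870 and 20128 in K700E. K700E replicate 1 was the lowest of all 6 libraries in MT-CO3 and the lowest K700E library in MT-CO1, and the genotypes overlapped in both genes. The 95% intervals of the log2 difference were -0.40 to 0.31 for MT-CO1 and -0.56 to 0.29 for MT-CO3.

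Complex I takes electrons from NADH, and 7 of its subunits are mitochondrial: MT-ND1 to MT-ND6 and MT-ND4L, which sit in the arm that pumps protons across the membrane. MT-ND1 was at 3341, 3825 and 3347 TPM in WT against 2054, 2955 and 2922 in K700E. Every K700E library lay below every WT library, the only mRNA whose groups did not overlap, where 4.99% of all tested genes were separated in that direction and 24.0% in either. Its log2 difference was -0.42 (SE 0.16, 95% interval -0.81 to -0.04) with a limma adjusted p of 0.258, so it did not pass. It was -0.25 without K700E replicate 1 and -0.61 with median-ratio scaling, and the adjusted p ran from 0.196 to 0.557 over all alternatives.

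MT-ND5 and MT-ND6, the last genes of the complex before MT-CYB, had the largest positive differences among the mRNAs. MT-ND5 was at 2348, 1581 and 1905 TPM in WT against 2276, 2407 and 2408 in K700E (log2 difference 0.30, SE 0.15, limma adjusted p 0.391). MT-ND6 was at 1750, 1045 and 1321 TPM in WT against 1728, 1718 and 1729 in K700E (0.36, SE 0.18, limma adjusted p 0.385). In each gene WT replicate 1 reached the K700E level and the other WT libraries lay below it. The K700E libraries of MT-ND6 differed little, with an SD of 6.11 TPM against 355 TPM in WT.

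The other complex I mRNAs overlapped between the genotypes. MT-ND2 stood at 7411, 6580 and 6573 TPM in WT against 5078, 9052 and 7776 in K700E. MT-ND3 was at 4519, 3187 and 3824 TPM in WT against 4317, 3974 and 4367 in K700E. MT-ND4L and MT-ND4 share 7 bases and are kept on a single mRNA. MT-ND4L was at 10483, 6625 and 8287 TPM in WT against 7895, 9877 and 8993 in K700E. MT-ND4 was at 16837, 10696 and 13267 TPM in WT against 12984, 15873 and 14078 in K700E. The ratio of MT-ND4 to MT-ND4L was 1.61 ± 0.00691 in WT and 1.61 ± 0.0396 in K700E (SD, n = 3 each), so the pair kept nearly the same ratio in every library.

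Complex III has a single mitochondrial subunit, cytochrome b, and ATP synthase has MT-ATP6 and MT-ATP8, both in its membrane part. MT-CYB was at 3659, 4316 and 3739 TPM in WT against 3451, 4094 and 5305 in K700E. MT-ATP6 stood at 17414, 8996 and 12326 TPM in WT against 12154, 14227 and 14019 in K700E. MT-ATP8 was at 6534, 3230 and 4420 TPM in WT against 4270, 5093 and 4744 in K700E. The WT libraries of the ATP synthase pair spread most widely of all the mRNAs, with WT replicate 1 at 1.94 (MT-ATP6) and 2.02 (MT-ATP8) times WT replicate 2, and all K700E libraries lay inside that range. The ratio of MT-ATP6 to MT-ATP8 was 2.67, 2.79 and 2.79 in WT and 2.85, 2.79 and 2.96 in K700E. The lowest K700E value, 2.793 in replicate 2, lay just above the highest WT value, 2.789 in replicate 3. This ratio was not planned and has no test, and no share over other gene pairs was computed. MT-ATP6 and MT-ATP8 overlap by 46 bases, and the counting rule for reads in shared bases is not stated in the sources used here.

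The mRNAs kept much the same order in all libraries. MT-CO2 ranked first, MT-CO3 after it, MT-ND4L sixth, MT-ND2 seventh and MT-ND6 last in all 6 libraries. MT-ND4, MT-CO1 and MT-ATP6 exchanged places 3 to 5, and MT-ATP8, MT-CYB, MT-ND3, MT-ND1 and MT-ND5 exchanged places 8 to 12. No neighbours in the order were separated over the full range of the 6 libraries. MT-CO2 made up 18.9 to 19.9% of the mRNA sum in every library, and MT-ND6 made up 1.07 to 1.69%.

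Within a genotype the mRNAs did not all vary in the same direction. WT replicate 1 had the highest level of the WT libraries in 11 of 13 mRNAs, while MT-ND1 and MT-CYB were highest in WT replicate 2. MT-ND1 has the highest GC content of the mRNAs, 47.7%, and MT-CYB has 46.3%. MT-CO3, MT-CO1 and MT-CO2 have a similar GC content, 46.6, 46.2 and 46.2%, and yet ratios of WT replicate 1 to 2 of 1.29, 1.40 and 1.49. MT-ATP8 has the lowest GC content, 39.6%, and had the largest ratio of WT replicate 1 to 2. Across the 13 mRNAs the correlation of that log2 ratio with GC content was r = -0.59, that of K700E replicate 3 to 1 was r = 0.58, and that of K700E replicate 2 to 1 was r = 0.34. The log2 difference between genotypes had r = -0.52 with GC content. These are descriptions across genes that share libraries, and the part of GC content in the differences was not tested.

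**Figure D2:**
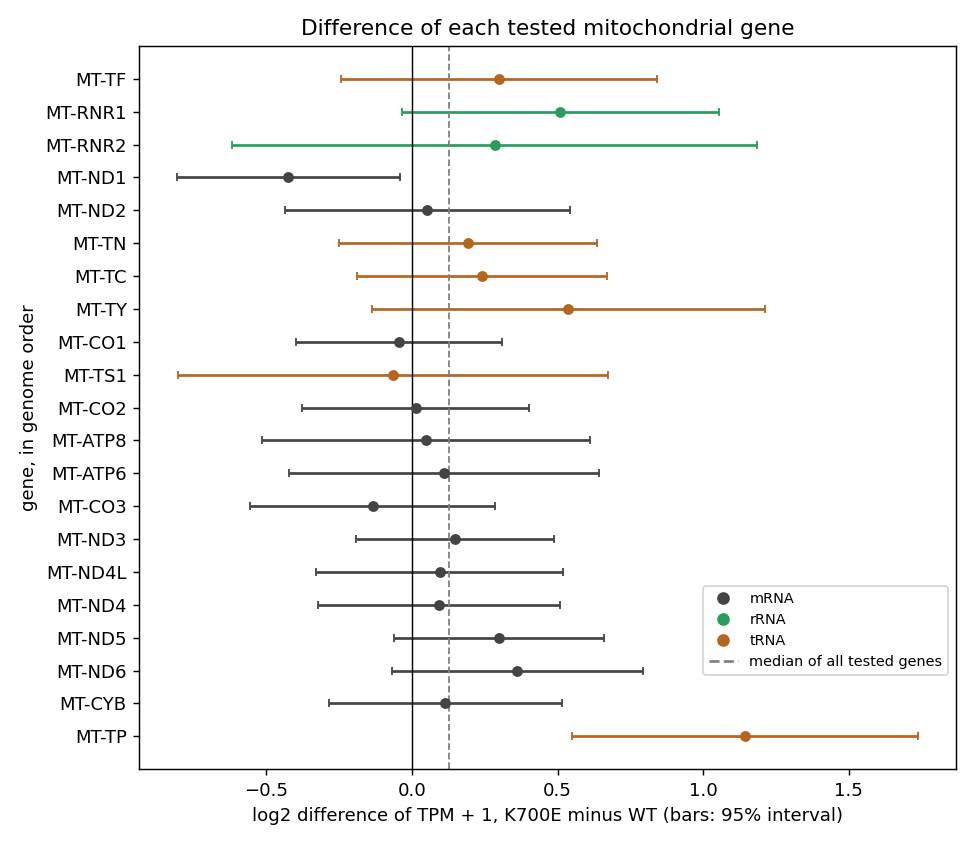
Log2 difference of TPM + 1 (K700E minus WT) of the 21 tested mitochondrial genes in genome order, with 95% intervals from limma; the dashed line is the median of all tested genes, 0.13. The intervals of MT-ND1 (-0.81 to -0.04) and MT-TP (0.55 to 1.74) do not reach 0, and neither gene passes after adjustment.

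The rRNAs form the mitochondrial ribosome with imported proteins, and neither passed the test. MT-RNR1, the small-subunit rRNA, was at 2838, 2507 and 2571 TPM in WT against 2639, 5225 and 3831 in K700E (log2 difference 0.51, SE 0.23, limma adjusted p 0.330). MT-RNR2, the large-subunit rRNA, was at 22911, 10855 and 16091 TPM in WT against 11364, 29557 and 21546 in K700E (0.28, SE 0.39, limma adjusted p 0.762). K700E replicates 2 and 3 lay above all WT libraries in MT-RNR1, while K700E replicate 1 lay within the WT range in both genes. Without WT replicate 2 the log2 difference of MT-RNR2 was 0.011, and without K700E replicate 2 it was -0.02. Without K700E replicate 1 the log2 difference was 0.76 for MT-RNR1 and 0.67 for MT-RNR2, with limma adjusted p of 0.139 and 0.478.

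Set against the mRNAs, the rRNA sum was 0.183, 0.136 and 0.164 of the mRNA sum in WT and 0.137, 0.275 and 0.201 in K700E. This ratio does not depend on how a library is scaled, and its groups overlapped. MT-RNR2 exceeded MT-RNR1 by 4.31 to 8.07 times per base, with the highest and a low value both in WT (8.07 in replicate 1 and 4.33 in replicate 2). How much of each rRNA an mRNA preparation retains was not measured.

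The tRNA rows held few reads, 29964 over 6 libraries, and of the 22 genes 9 had none in any library. For a count of 0, the upper 95% limit from counting error alone is 3 reads, if reads are independent. At these depths 3 reads equal 0.719 to 1.06 TPM for those 9 genes. Per library 978 to 1139 genes held 1 read and 2994 to 3203 held 2, so reads may not be independent and the limit may be higher. The rows of the 8 light-strand tRNA genes held 29636 of the reads and those of the 14 heavy-strand genes 328. Strand settings are not stated, so a row may hold reads from either strand. The 6 genes with at least 10 bases outside any gene on a side, or the end of the gene map, held 29890 reads, and the other 16 held 74. MT-TK is the exception among those 6, with a gap of 25 bases and 0 reads. These rows say little about mature tRNAs, which are short and lack a poly(A) tail. The labels name an mRNA library preparation, and how mRNA was selected is not stated in the sources used here.

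The 6 tRNAs that passed the filter included none that passed the test, with 1 (MT-TP) at an unadjusted p under 0.05. MT-TN stood at 128, 81.8 and 98.2 TPM in WT against 123, 99.9 and 126 in K700E. MT-TC, its neighbour, was at 156, 96.8 and 134 TPM in WT against 148, 157 and 144 in K700E. MT-TF, the first gene after the heavy-strand promoters, was at 9.73, 14.4 and 9.97 TPM in WT against 11.04, 18.5 and 13.4 in K700E, from 30 to 67 reads. The groups of all these overlapped, as did those of MT-TY (4.54, 4.20 and 8.11 TPM in WT against 6.11, 8.02 and 11.5 in K700E) and of MT-TS1, which had 1 to 6 reads.

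MT-TP, the proline tRNA gene, had the largest difference of the mitochondrial genes. It is the first gene that the light-strand precursor reaches after the non-coding control region. Its level was 985, 535 and 710 TPM in WT replicates 1, 2 and 3, against 1429, 2090 and 1353 in the K700E replicates, from 2101 to 2908 reads in WT and 4341 to 7249 in K700E. Every K700E library lay above every WT library, where 19.0% of all tested genes were separated in that direction. The log2 difference was 1.14 (SE 0.25, 95% interval 0.55 to 1.74), and the limma adjusted p of 0.0893 did not pass. It passed without WT replicate 1 (log2 difference 1.37, limma adjusted p 0.0432), and over all 15 alternatives the difference ran from 0.93 to 1.37 and the adjusted p from 0.0432 to 0.304. Without WT replicate 3 they were 1.13 and 0.304.

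**Figure D3:**
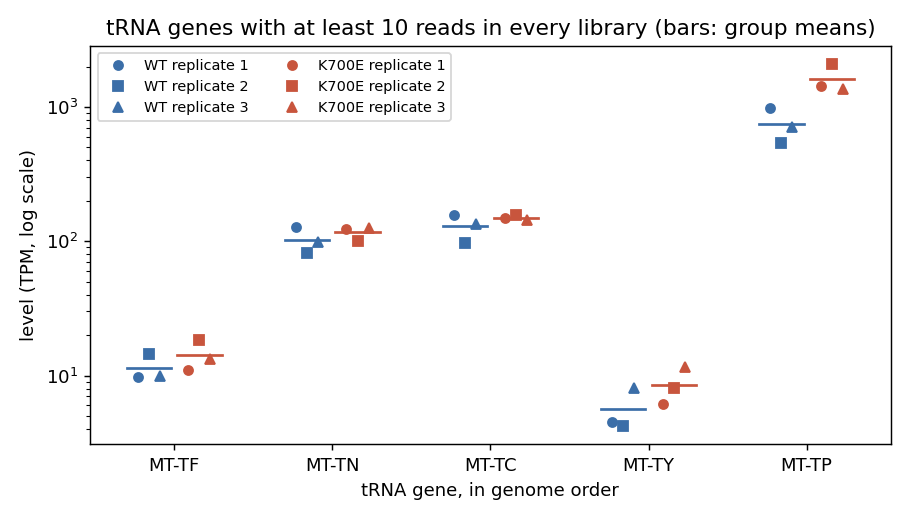
TPM (log axis) of the 5 tRNA genes with at least 10 reads in every library, with a point per library and a bar at each group mean; blue is WT and red K700E. MT-TP lies at 535 to 985 TPM in WT and 1353 to 2090 TPM in K700E, while the groups of the other 4 genes overlap.

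Relative to the other products of the same genome, MT-TP was also separated. As a share of the mRNA sum it was 0.699, 0.546 and 0.625% in WT and 1.40, 1.65 and 1.07% in K700E. On that scale 13.3% of all tested genes were separated upward and 3.36% downward. MT-TP took 72.2 to 76.1% of tRNA reads in WT and 81.7 to 87.8% in K700E, and without it the tRNA sum was 304, 202 and 254 TPM in WT against 289, 287 and 297 in K700E, with overlap. The other light-strand gene with many reads is MT-ND6. Its level was 1.26, 1.08 and 1.18% of the heavy-strand mRNA sum in WT and 1.72, 1.38 and 1.39% in K700E. These groups did not overlap. Strand settings are not stated in the sources used here, so the rows of MT-TP and MT-ND6 may hold reads from either strand. The ratio of MT-TP to MT-ND6 was 0.563, 0.512 and 0.537 in WT and 0.827, 1.22 and 0.782 in K700E, without overlap. This ratio uses the same MT-TP levels again, and no share over all genes was computed for it.

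Within the mRNA sum 3 of 13 genes were separated. MT-ND1 made up 2.37, 3.91 and 2.95% in WT and 2.01, 2.33 and 2.32% in K700E. MT-ND5 made up 1.67, 1.61 and 1.68% in WT and 2.23, 1.90 and 1.91% in K700E, and MT-ND6 was again higher in every K700E library. Over all tested genes 16.6% were separated on this scale, in either direction. The ratios for MT-TP, MT-ND1 and MT-ND5 were chosen after their values were seen, and they have no test.

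**Figure D4:**
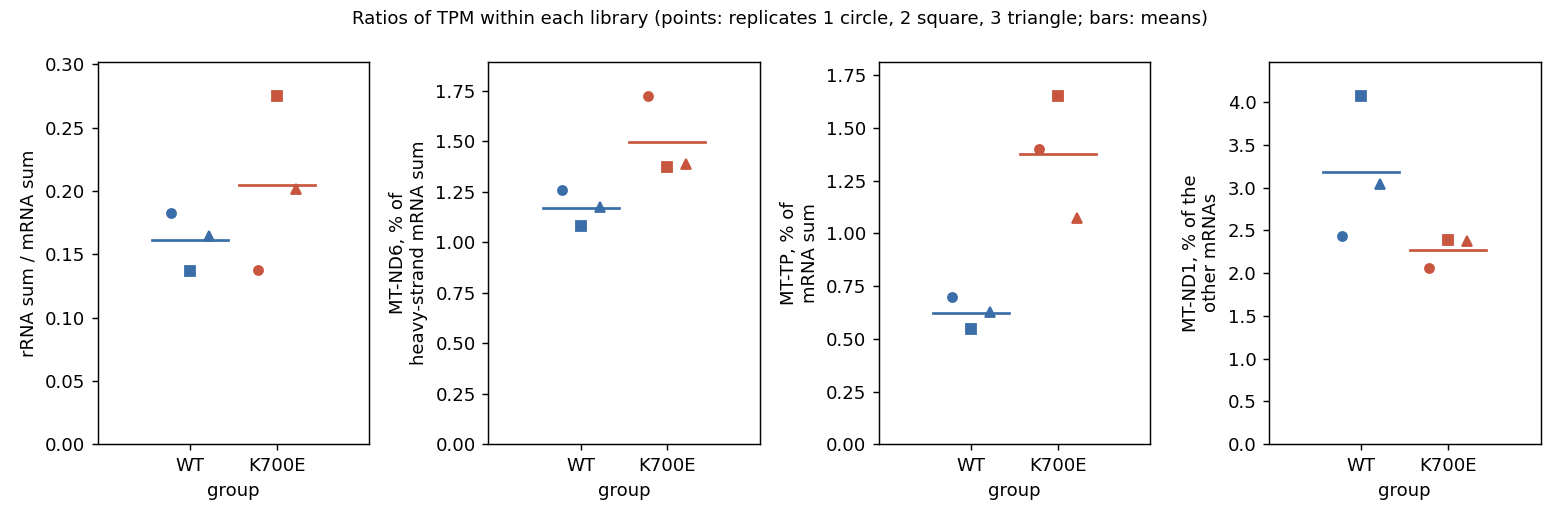
Ratios of TPM within each library, with axes from 0: the rRNA sum over the mRNA sum, MT-ND6 as a percentage of the heavy-strand mRNA sum, MT-TP as a percentage of the mRNA sum, and MT-ND1 as a percentage of the other mRNAs. The rRNA panel overlaps between the genotypes (0.136 to 0.183 in WT and 0.137 to 0.275 in K700E), while the other panels do not.

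Histone mRNAs, which mostly lack a poly(A) tail, made up nearly all of the summed level of a list of RNAs chosen as tail-less. That sum was higher in K700E. Whether the histone reads came from RNA with or without a tail was not tested. The list of 33 RNAs (small nuclear and other structured RNAs and replication-dependent histone mRNAs) had 27 in the table and 17 tested. Only 1 of 17 passed the test, where 1.15% of all genes were called higher: the histone gene H2BC4, which rose from 18.8, 20.1 and 19.1 TPM to 48.3, 53.9 and 35.5 TPM (log2 difference 1.19, SE 0.18, limma adjusted p 0.0279), and 14 of 17 lay above the median gene, with a median of 0.39. H2BC4 did not pass with median-ratio scaling, with no filter, or without WT replicate 2 or 3 or K700E replicate 1 or 2. The summed level of the 27 was 1004, 1804 and 1443 TPM in WT against 2429, 2595 and 2263 in K700E. The linker histone gene H1-2, named after its values were seen, held most of it, at means of 920 and 1661 TPM (limma adjusted p 0.134). The structured RNAs stood at no more than 3.85 TPM in any library and lay in both directions, RNU6ATAC at means of 2.44 and 1.07 TPM and VTRNA1-1 at 0.738 and 1.62 TPM, neither passing the test. Within WT the sum was lowest in replicate 1, where MT-TP was highest. Within K700E both the sum and MT-TP were highest in replicate 2 and lowest in replicate 3. The part of recovery of RNAs without a tail in the levels of MT-TP, MT-ND6 and the rRNAs was not tested.

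The nuclear genes that copy and process mitochondrial RNA held no called member. Of 24 genes for transcription and DNA maintenance, 23 were tested, with a median log2 difference of 0.19 against 0.13 for all genes. MTERF2, a member of the mitochondrial termination factor family, stood at 23.4, 14.4 and 18.9 TPM in WT against 11.1, 10.9 and 12.7 in K700E (limma adjusted p 0.170). TFB2M, which opens mitochondrial promoters, was at 64.9, 48.3 and 56.2 TPM in WT against 93.7, 75.5 and 68.8 in K700E (limma adjusted p 0.229). These had the smallest adjusted p of the list, which is why they are named. Of the 23 tested genes 5 were separated upward and 1 downward, where 19.0% and 4.99% of all genes were.

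Among 36 genes for RNA processing, stability and decay, 35 were tested, with a median log2 difference of 0.22 against 0.13 for all genes. Of the 35, 32 had a positive difference, and the share of positive differences over all genes was not computed. HSD17B10, a subunit of the enzyme that cuts tRNAs at their 5′ end, was at 106, 167 and 143 TPM in WT against 271, 173 and 190 in K700E (limma adjusted p 0.248). GRSF1, an RNA-binding protein of mitochondrial RNA granules, was at 37.1, 24.5 and 29.5 TPM in WT against 46.7, 43.2 and 37.4 in K700E (limma adjusted p 0.248). Of the 35 tested genes 23 lay above the median gene, and 8 were separated upward and 0 downward, where 19.0% of all genes were separated upward.

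Nuclear subunits of the complexes that hold mitochondrial subunits had no called member either. The median log2 difference was 0.21 for 36 tested complex I subunits, 0.25 for 9 of complex III, 0.09 for 12 of complex IV and 0.13 for 18 of ATP synthase. The 4 subunits of complex II, which has no mitochondrial subunit, had a median of 0.23, with SDHC and SDHB at limma adjusted p of 0.412 and 0.511. NDUFB2 of complex I had the smallest adjusted p of its complex, at 28.5, 28.9 and 27.3 TPM in WT against 45.5, 39.5 and 37.5 in K700E (limma adjusted p 0.123), followed by NDUFC1 (0.188). ATP5MC1, a copy of the ring subunit of ATP synthase, was at 300, 274 and 291 TPM in WT against 505, 386 and 394 in K700E (limma adjusted p 0.114), followed by ATP5MC3 (0.301). For complex III these were UQCR11 (0.150) and UQCRQ (0.234), and for complex IV NDUFA4 (0.284) and COX6A1 (0.296).

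Summed by complex, the mitochondrial subunits of complex I stood at 46690, 33540 and 38524 TPM in WT against 36332, 45856 and 42275 in K700E. The nuclear subunits of the same complex stood at 4430, 4495 and 4532 TPM in WT against 5452, 5215 and 4982 in K700E, without overlap. No share over other summed lists of this size was computed. Taken singly, 11 of the 36 tested nuclear subunits were separated upward and 0 downward, where 19.0% and 4.99% of all tested genes were. The other nuclear sums overlapped, with means of 4550 and 4708 TPM for complex III, 4097 and 4308 TPM for complex IV, 5558 and 6057 TPM for ATP synthase and 552 and 645 TPM for complex II. The mitochondrial complex I sum was lowest in WT replicate 2 and K700E replicate 1, and the nuclear complex I sum was highest in K700E replicate 1. No test set the sums against each other.

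Nuclear copies of mitochondrial genes can share reads with the members. Of 416 such copies chosen by symbol, 325 were at 0 in all libraries and 7 were tested, with 0 called by limma and 0 at an unadjusted p under 0.05. MTCO3P12 and MTCO1P12 on chromosome 1 led, at means of 143 and 31.8 TPM. The copies summed to 145 to 265 TPM per library, small beside the mRNA sum. MTATP6P1 stood at 1.05 to 3.18 TPM in 5 libraries and at 43.0 TPM in K700E replicate 3, beside 14019 TPM for MT-ATP6 there, and MTRNR2L8, a copy of MT-RNR2 sequence, at 2.09 to 5.91 TPM. How multiply mapped reads were assigned is not given in the sources used here, so levels of these copies and of their mitochondrial partners are uncertain by what they share.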

How the data were processed

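RNA was measured in 6 K562 libraries, 3 per genotype in the labels. The authors deposited TPM values per gene in a table per genotype. Per the submitters' processing notes the build was GRCh37 (hg19) and the tools were cutadapt 2.10 and TopHat2 2.1, with featureCounts 2.0.1 and also DESeq2; per the file headers the WT columns end as STAR names its files. The sources used here do not state strand or multimapping settings or which aligner made the K700E table; any difference between the tables would coincide with genotype. The deposited gene length in bases (a column that is neither a level nor a score) times TPM gave whole reads for 100% of values (tolerance 0.01) in all libraries, so each was scaled alone and the tables were tested together. Symbols matched 58765 of 62111 rows.

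Every gene whose mean reached 1 TPM entered limma 3.58.1 (R 4.3.3; trend, two-sided, Benjamini-Hochberg) as log2(TPM + 1), which understates changes of low genes; the procedure was tested on simulated data. Named genes are SF3B1, all mitochondrial mRNAs, rRNAs and tested tRNAs, and of each nuclear list the called genes up to 4, or else the 2 of smallest adjusted p, and the 4 most abundant nuclear copies; cell type markers were named after their values were seen. The level of 1 K562 marker is not reported here. Members and lists were chosen with earlier results of these data known. The alternatives tried were a pseudocount of 0.1 or 5, a filter at 5 TPM or none, median-ratio scaling, scaling over nuclear genes, no trend, a replicate block, limma-voom on recovered reads, shares of reads for the sums and ratios, and leaving out each library. Sequences came from GENCODE 29. Anticodons were located as the known triplet inside a 7-base loop. Python 3.11.15 with pandas 2.3.3 joined the tables. Heteroplasmy and transcript ends were not analysed here.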

Additional observations from a re-analysis of the deposited data

How the results depend on the processing

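Depth does not limit the mRNAs or rRNAs, which had at least 31704 reads in each library, nor MT-TP, MT-TN and MT-TC, with at least 345; it does limit the other tRNAs. Of 312 refits of the 21 tested mitochondrial genes, 311 stayed on the same side of the threshold, and the other was MT-TP without WT replicate 1. The log2 difference kept its sign under all alternatives run in 9 of the 21 genes, among them MT-ND1, MT-ND5, MT-ND6, MT-RNR1 and MT-TP, and changed sign in at least 1 in the other 12, none of them called. The count of called tRNAs was 0 or 1 with a library left out, and those of mRNAs and rRNAs were 0 under all alternatives. Calls over all genes numbered 92 with a filter at 5 TPM and 0 with no filter (4891 at an unadjusted limma p under 0.05), beside 214. With a library left out they ranged from 0 to 170: WT replicate 3 gave 0 (1492 unadjusted), K700E replicates 1, 2 and 3 gave 93, 86 and 137, and WT replicates 2 and 1 gave 126 and 170. The single call in the nuclear lists was 0 with median-ratio scaling (14 unadjusted), 0 with no filter (33 unadjusted) and 0 to 1 with a library left out (0 without WT replicate 2 or 3 or K700E replicate 1 or 2). The replicate block gave 67 calls over all genes and none among the mitochondrial genes, with MT-TP at a limma adjusted p of 0.149. Deviations of same-numbered libraries correlated at 0.28, -0.19 and 0.30, and WT replicate 2 correlated best with K700E replicate 3 (0.43), so the numbers were not taken to pair the libraries. The cause of these shifts was not tested.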
